A study of Gallus gallus with 2 samples.

Results

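Interleukin and interferon receptor genes encode the surface chains through which lymphocytes and epithelial cells sense cytokines. The 9 genes described here were chosen by name: IFNAR1, IFNAR2, IFNGR1, IL10RB, IL6ST, IL13RA1, IL17RA, IL1R1 and IL18R1. Their array probes were found by the gene name or the gene description that the files give each probe, among 42034 probes that are not control spots. Of the 9 genes, 7 had a probe, with 1 probe each, and no probe was found by these names for IFNGR1 and IL18R1, which were not analysed here. Relative to the average probe, IFNAR1, IFNAR2 and IL10RB were lower in the fed birds. The IL1R1 ratio was above 0 on both arrays but missed the threshold. IL10RB and IL1R1 could be tested only through the group with the higher signal. The probes of IL6ST, IL13RA1 and IL17RA were too dim to test.

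The study asked how direct fed microbials (DFM), live microorganisms given with the feed, relate to gene expression in intestinal intraepithelial lymphocytes. These lymphocytes, many of them T cells, sit within the epithelium of the intestine. The treated group was broiler chickens at day 14 given DFM, and the control group was untreated broiler chickens of the same age, and total RNA of both groups was put together on each of 2 arrays read in a pair of dyes. DFM RNA carried Cy5 on array 1 and Cy3 on array 2. By its labels array 2 is a further biological replicate and also a dye exchange of array 1, and the microbial strains, the feeding dose and the number of birds behind each RNA are not given in the sources used here. The limma p-values rest on the spread of a probe over these 2 arrays, moderated by that of all tested probes, and that spread may be technical.

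Cytokine receptors of this group work by bringing a pair of chains together around a ligand. The type I interferon receptor is made of IFNAR1 and IFNAR2, whose bound JAK kinases activate STAT factors and so the interferon-stimulated genes. IL10RB is a shared second chain that joins IL10RA to bind IL-10 and, in mammals, IL22RA1 to bind IL-22 and IFNLR1 to bind type III interferon. IL6ST, also called gp130, is the common signalling chain of the IL-6 family, IL13RA1 pairs with IL4R, and IL17RA is the common chain of the IL-17 family. IL1R1 binds IL-1 and signals through MYD88 and NF-kB rather than through JAK kinases. In the gut, IL-22 acts on epithelial cells, which carry its receptor, and IL-10 restrains immune cells.

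Across the 7 probes, detection ranged from all 4 channels to none. A spot was called well above background by the scanner software in each channel, and the 4 channels are DFM and control on each of the 2 arrays. IFNAR1 and IFNAR2 were well above background in all 4 channels, IL10RB and IL1R1 in 3, IL17RA in 1, and IL6ST and IL13RA1 in 0. The dim spots of IL10RB and IL1R1 were read in Cy3, and the detected spot of IL17RA in Cy5. Over all probes on arrays 1 and 2, 21122 and 20465 were well above background in Cy5. In Cy3 these were 16889 and 17331. Probes entered the test where both channels of at least 1 group were well above background, which 4 of the 7 did. Levels below are normalized log2 signals of 1 probe and are compared only between channels of that probe. Each group has 2 values, which can lie apart in the absence of any difference. How many of all tested probes lie apart in this way was not counted.

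IFNAR1, a signalling chain of the type I interferon receptor, had log2 signals of 7.85 and 7.78 in the control channels of arrays 1 and 2 and of 7.11 and 7.35 in the DFM channels. Both control values lay above both DFM values, and the share of all tested probes with such a gap was not counted. The log2 ratio of DFM over control was -0.73 on array 1 and -0.43 on array 2, a mean of -0.58 ± 0.21 (SD, n = 2 arrays). IFNAR1 was 1.5-fold lower with DFM (SE 0.13, 95% interval -0.89 to -0.28, limma adjusted p = 0.0173). Its spots had mean intensities of 172 and 127 in DFM over local backgrounds of 53 and 43, and of 194 and 268 in control over 44 and 51. The probe maps to chromosome 1, bases 99020293 to 99020352 of galGal2 as the files list it, and represents the IFNAR1 reference mRNA.

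IFNAR2, the ligand-binding partner of IFNAR1, measured 6.87 and 6.90 in control and 6.16 and 6.46 in DFM. The DFM values differed more between arrays than the control values. The log2 ratios were -0.71 and -0.44, a mean of -0.57 ± 0.19 (SD, n = 2 arrays), so that IFNAR2 was 1.49-fold lower (SE 0.13, 95% interval -0.88 to -0.27, limma adjusted p = 0.0173). Its spots were dim, with mean intensities of 77 and 78 in DFM over backgrounds of 52 and 44, against 107 and 130 in control over 42 and 50. The listed position is chromosome 1, bases 98979099 to 98979158.

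IL10RB, the chain shared by the receptors for IL-10 and IL-22, measured 6.71 and 6.66 in control and 6.22 and 6.22 in DFM. The 2 arrays gave nearly the same values within each group. The DFM spot of array 2 was not well above background. The probe thus entered the test only through control, the group with the higher signal. The log2 ratios were -0.50 and -0.44, a mean of -0.47 ± 0.04 (SD, n = 2 arrays), or 1.39-fold lower (SE 0.12, 95% interval -0.75 to -0.19, limma adjusted p = 0.0287). The probe is described as splice variant 2 of the mRNA, so the value belongs to transcripts that hold its sequence, and it is listed at chromosome 1, bases 98989147 to 98989544.

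IL1R1, the signalling receptor for IL-1, was the only tested probe of the group with ratios above 0. Its log2 signals were 6.14 and 6.07 in control and 6.40 and 6.69 in DFM, with the control spot of array 1 not well above background. The probe entered the test only through DFM, the group with the higher signal, which favours a gap between the groups. The log2 ratios were 0.25 and 0.62, a mean of 0.44 ± 0.26 (SD, n = 2 arrays, 1.36-fold, SE 0.14, 95% interval 0.12 to 0.76), and the limma adjusted p of 0.0538 missed the threshold of 0.05. With the offset of the background correction at 0 instead of 50 the mean was 1.18 and the call was higher (limma adjusted p = 0.00958). The probe is listed at chromosome 1, bases 126878936 to 126878995.

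**Figure D1:**
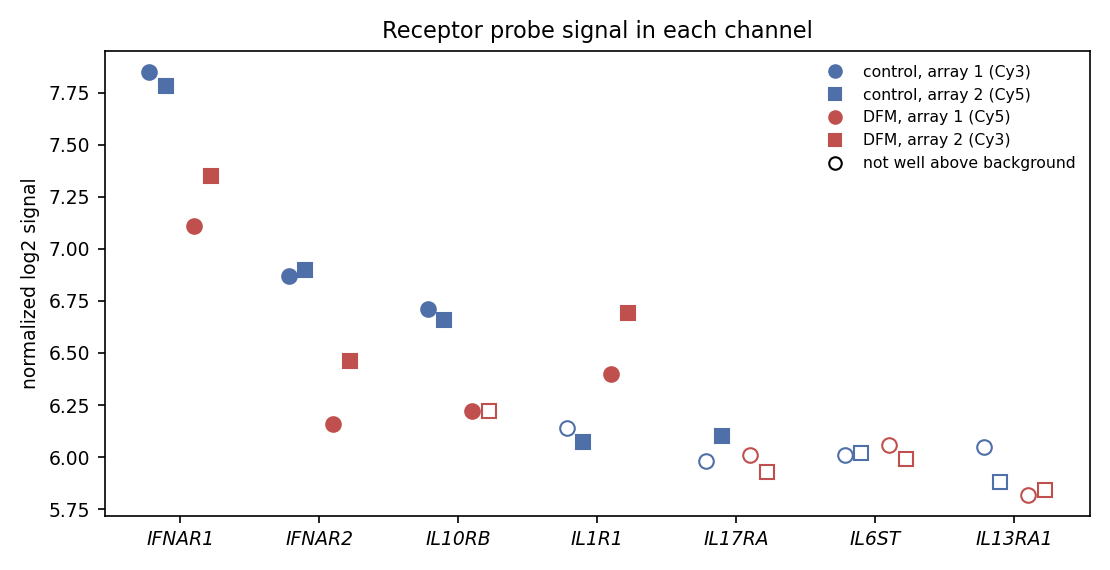
Normalized log2 signal (y axis) of the 7 receptor probes in each of the 4 channels, with control in blue and DFM in red, circles for array 1, squares for array 2 and open symbols for spots not well above background. Control and DFM points are apart for IFNAR1, IFNAR2, IL10RB and IL1R1, and how many of all tested probes do the same was not counted. IL10RB and IL1R1 entered the test only through the group with the higher signal, which favours such a gap. The points of IL17RA, IL6ST and IL13RA1 lie at the dim end, where 1 control spot of IL17RA was well above background.

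The probes of the remaining chains gave no measurable level. IL17RA was well above background in the control channel of array 2 and in no other, at log2 signals of 5.98 and 6.10 in control and 6.01 and 5.93 in DFM, and its ratios were 0.03 and -0.18. IL6ST, the gp130 chain, measured 6.01 and 6.02 in control and 6.06 and 5.99 in DFM, with ratios of 0.05 and -0.03. IL13RA1 measured 6.05 and 5.88 in control and 5.82 and 5.84 in DFM, with ratios of -0.23 and -0.04. A difference in these 3 genes was not detectable at this signal, which does not show that the genes are unexpressed. The IL13RA1 probe comes from an expressed sequence tag rather than a reference mRNA. IL17RA lies on chromosome 1 (bases 58276902 to 58276961), IL13RA1 on chromosome 4 (3217895 to 3217953) and IL6ST on chromosome Z (492713 to 492772) in galGal2, and whether these positions are coding or untranslated was not annotated in the sources used here.

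Of the 4 tested receptor genes, 3 were called lower, 0 higher and 1 was not called. IFNAR1 and IFNAR2 were well above background in all 4 channels, though the IFNAR2 spots were dim. IL10RB entered the test only through control and IL1R1 only through DFM, in each case the group with the higher signal. Over all 18242 tested probes limma called 10.5% lower (1918 probes) and 12.1% higher (2202 probes). The count covers probes that passed the detection filter and not all 9 genes. With all 4 channels required, 2 genes were tested and both were lower, beside 1973 probes lower and 2036 higher of 15788 tested. The scanner software gives its own p-value for each spot, and at p under 0.01 on both arrays it called the same 3 genes lower and IL1R1 higher, beside 10.2% of tested probes lower and 10.2% higher.

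**Figure D2:**
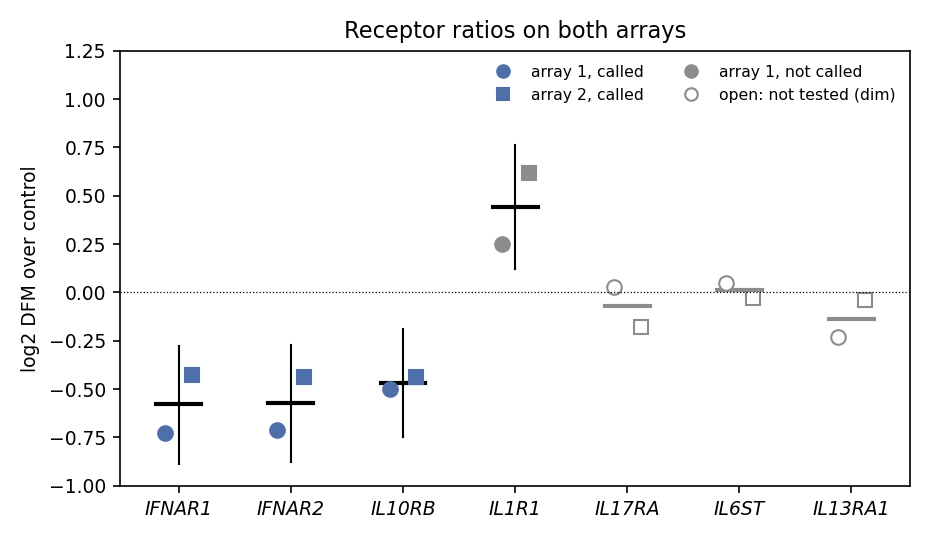
Log2 ratio of DFM over control (y axis) of the 7 receptor probes on array 1 (circles) and array 2 (squares), with the mean as a thick bar and limma's 95% interval as a thin line for tested probes. Blue probes were called lower (means of -0.58, -0.57 and -0.47), grey filled probes were not called and open probes were too dim to test. Set to the spike-in RNAs, the blue ratios lie above 0.

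The size of these differences depends on how background is taken off dim spots. In the ratios of the authors' deposited table, from the scanner software, the values were -1.26 and -0.69 for IFNAR1, -2.17 and -1.24 for IFNAR2, -1.49 and -2.38 for IL10RB, and 2.88 and 2.21 for IL1R1. On that scale the means were -0.97, -1.70, -1.93 and 2.54, and limma called IFNAR2 and IL10RB lower and IL1R1 higher (adjusted p = 0.0358, 0.0275 and 0.0126), while IFNAR1 missed the threshold (adjusted p = 0.0636). With median centring of each array in place of loess, the means were -0.62, -0.62, -0.47 and 0.42. No gene of the 4 was called there (SE 0.61 and limma adjusted p = 1 for each), while the SE with loess was 0.12 to 0.14. Over all tested probes, that setting called 109 higher and 8 lower, with median ratios of 0.44 on array 1 and -0.474 on array 2. Under these settings every one of the 4 genes had the same sign on both arrays.

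Directions are relative to the average probe, which loess sets to 0 on either array. The 10 spike-in RNAs added to the samples had mean log2 ratios of -1.809 on array 1 and -2.45 on array 2. The expected ratios of single spike-ins and the amount added to each RNA were not taken into account in these means. The scanner software gives its own fit of observed against expected spike-in ratios. Its intercepts, as log10 Cy5 over Cy3, were -0.553 on array 1 and 0.766 on array 2. Turned to DFM over control, both lie below 0. With their mean at 0 on each array, the means became 1.55 for IFNAR1, 1.55 for IFNAR2, 1.66 for IL10RB and 2.57 for IL1R1. The 3 lower calls thus turned to higher. On that scale 18202 of 18242 probes were called higher and 2 lower. The change of scale takes the same value from every ratio of an array, so it cannot alter the order of the genes. The lower and higher calls that follow are relative to the average probe.

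**Figure D3:**
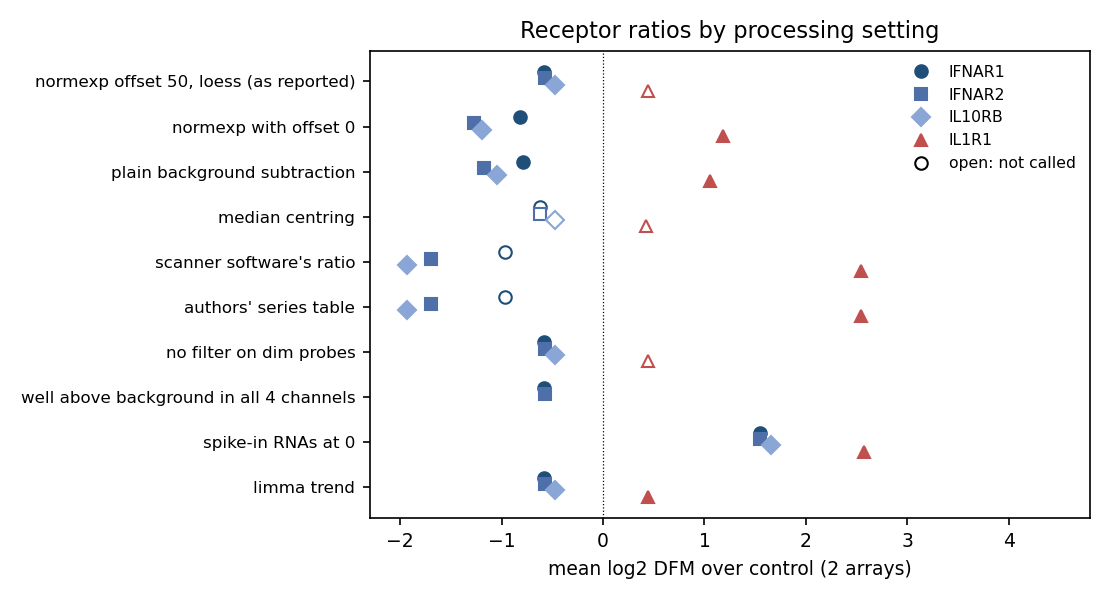
Mean log2 ratio of DFM over control (x axis) of IFNAR1, IFNAR2, IL10RB and IL1R1 under each processing setting (rows), filled where limma called the gene and open where it did not. IFNAR1, IFNAR2 and IL10RB lie left of 0 and IL1R1 right of it in each row except the spike-in row, where all 4 lie right of 0; IL10RB and IL1R1 have no point where all 4 channels had to be well above background.

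In RefSeq, IFNAR2, IL10RB, IFNAR1 and IFNGR2 lie in this order on chromosome 1, and the listed probe positions keep that order. Whether other genes lie between them was not looked up. IL10RB lies 10.0 kb, IFNAR1 41.2 kb and IFNGR2 62.5 kb from the IFNAR2 probe. IFNGR2, the second chain of the interferon gamma receptor, measured 10.47 and 10.38 in control and 10.45 and 10.36 in DFM. Its ratios were -0.02 and -0.02 (limma adjusted p = 0.928, 95% interval -0.30 to 0.26), so the interval excludes the mean ratios of its 3 neighbours. The difference between IFNGR2 and its neighbours was not itself tested. Of 12 probes listed from 30 kb before to 30 kb after this stretch, 6 were tested, 3 of them lower (the receptor genes) and 3 not called. The 8 probes without a gene name there included 2 tested ones, both near IFNGR2, at mean ratios of 0.23 and -0.31.

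**Figure D4:**
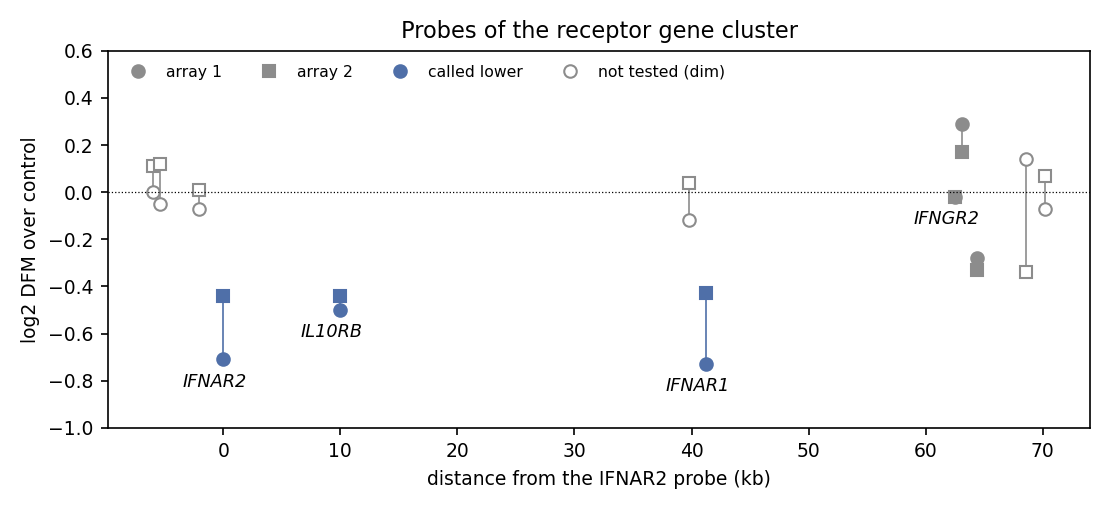
Log2 ratio of DFM over control (y axis) of the 12 probes in and around the stretch from IFNAR2 to IFNGR2, against distance from the IFNAR2 probe in kb (x axis). Circles are array 1, squares array 2, blue probes were called lower relative to the average probe and open probes were too dim to test; IFNAR2, IL10RB and IFNAR1 lie at -0.43 or lower on both arrays and IFNGR2 lies at -0.02.

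IL1R1 belongs to a second receptor stretch of chromosome 1, where RefSeq places IL1R2, IL1R1, IL1RL2, IL1RL1, IL18R1 and IL18RAP in this order. IL1R2, a decoy receptor without a signalling domain in mammals, was well above background in 1 channel, with ratios of 0.03 and 0.17. IL1RL2 and IL1RL1 were well above background in 0 channels. Of 11 probes listed from 30 kb before the IL1R2 probe to 30 kb after the IL1RL1 probe, 2 were tested. The count was not extended to IL18R1 and IL18RAP. Limma called 0 of the 2. They were IL1R1 itself (limma unadjusted p = 0.0127) and an unnamed probe with a mean ratio of 0.25 (limma unadjusted p = 0.0847). These lie at 65.2 and 75.5 kb from the IL1R2 probe. That unnamed probe had ratios of 0.18 and 0.31. Its control spot on array 1 was not well above background, as for IL1R1. Both of these spots were read in Cy3, the dye with fewer probes well above background on either array.

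Partner chains of these receptors gave mixed values. IL22RA1, which pairs with IL10RB for IL-22, had log2 signals of 7.99 and 7.93 in control and 6.61 and 6.91 in DFM. It was 2.29-fold lower, with ratios of -1.38 and -1.02 (SE 0.14, limma adjusted p = 0.000763), the lowest value among the 14 tested receptor chains outside the 9 genes. IL10RA, the ligand-binding chain for IL-10, had ratios of 0.25 and 0.02 (limma adjusted p = 0.483), with 1 dim control spot. IFNLR1, the type III interferon chain, had ratios of 0.68 and -0.35 (limma adjusted p = 0.605), of opposite sign on the arrays. IL4R, the partner of IL13RA1, had ratios of -0.12 and -0.50 on its brighter probe (limma adjusted p = 0.148), and both DFM spots of its other probe, also not called, were not well above background.

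Of the 24 other receptor chains with a probe, 14 were tested, and 1 was called higher and 3 lower, with a median ratio of -0.18. All lists below use 1 probe per gene, the brightest tested one, and by that rule limma called 14.5% of 6089 named genes lower and 8.46% higher, with a median of -0.08. IL21R, the receptor for the T cell cytokine IL-21, had ratios of -0.44 and -0.52 (limma adjusted p = 0.0266), and LIFR, which signals together with gp130, had -0.51 and -0.39 (limma adjusted p = 0.0359). IL13RA2, a second IL-13 binding chain regarded as a decoy in mammals, was 1.32-fold higher at 0.44 and 0.37 (limma adjusted p = 0.0488). No probe was named here for IL1RAP, IL18RAP, IL6R or IL17RC.

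Ligands of these receptors were mostly dim. Of 11 ligand genes with a probe, 2 were tested, and 1 of them was called higher. IL17A, a ligand of IL17RA, had log2 signals of 6.26 and 6.47 in control and 7.12 and 6.94 in DFM, with ratios of 0.85 and 0.47 (SE 0.14, limma adjusted p = 0.0122) and the control spot of array 1 not well above background. It entered the test only through the DFM group, where its signal was higher. CNTF, a ligand of the gp130 and LIFR pair, had ratios of 0.42 and 0.19 (limma adjusted p = 0.125). IL1B, the ligand of IL1R1, was well above background in 1 channel (ratios of 0.15 and 0.10), as was IL18 (-0.22 and 0.11). IFNA3, a type I interferon gene, was well above background in 2 channels, 1 of each group (0.08 and 0.15), and was not tested. IFNW1, listed here as another type I interferon, and IL6, IL10, IL4, IL13 and IFNG were well above background in 0 channels.

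Of 8 JAK, STAT and IRF genes with a probe, all 8 were tested, 0 were called higher and 2 lower, with a median of -0.11. JAK1, the kinase bound by IFNAR2 and gp130 among others, had log2 signals of 8.51 and 8.57 in control and 7.67 and 7.87 in DFM, and was 1.71-fold lower (ratios of -0.84 and -0.70, SE 0.13, limma adjusted p = 0.00411). STAT3, the main STAT factor of the IL-6, IL-10 and IL-22 receptors, had ratios of -0.99 and -0.41 (SE 0.16, limma adjusted p = 0.0165). JAK2 was not called and both its DFM spots were not well above background. JAK3 had a mean ratio of -0.05 (limma adjusted p = 0.798), and IRF9, the DNA-binding part of the interferon-activated complex, had 0.50 and 0.02 (limma adjusted p = 0.235). No probe was named here for TYK2 or STAT2.

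Inhibitors of cytokine receptor signalling split in both directions: of 13 tested genes, 2 were called higher, 5 lower and 6 were not called, with a median of -0.19. SOCS3, which binds gp130 and its JAK kinases, had log2 signals of 10.90 and 10.39 in control and 11.82 and 11.68 in DFM and was 2.15-fold higher (ratios of 0.92 and 1.29, SE 0.14, limma adjusted p = 0.00123). PTPN2, a phosphatase of JAK1 and STAT factors, was 1.68-fold higher (0.71 and 0.78, limma adjusted p = 0.00456). The lower genes were the phosphatase gene PTPN11 (mean -0.67), SOCS2 (-0.62), PIAS2 (-0.52), TOLLIP, an inhibitor of IL-1 receptor signalling (-0.49), and SOCS6 (-0.48). SOCS1 had ratios of 0.19 and 0.28 and was not called (limma adjusted p = 0.207).

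Of 10 tested adaptor and kinase genes of IL-1, IL-18 and IL-17 receptor signalling, 1 was called higher, 1 lower and 8 were not called, with a median of -0.21. MYD88, the adaptor that IL1R1 recruits, had ratios of -0.71 and -0.53 (1.54-fold lower, limma adjusted p = 0.0109). NFKBIZ, a nuclear IkB protein induced in mammals by IL-1 and IL-17, had ratios of 0.72 and 1.04 (1.84-fold higher, limma adjusted p = 0.00322). TRAF3IP2, the adaptor of IL17RA, had ratios of -0.13 and -0.15 (limma adjusted p = 0.452).

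Interferon-stimulated genes, a list not limited to targets of IFNAR1 and IFNAR2, had all 16 of their probed genes tested. Of these, 5 were called lower, 2 higher and 9 were not called, with a median of -0.27. IFIT5, an RNA-binding antiviral protein gene, was 1.86-fold lower (-1.02 and -0.78, limma adjusted p = 0.00242), and its second probe gave -0.89 and -0.77. ZNFX1 had a mean of -0.82, and of its 2 other tested probes 1 was also called lower. OASL had -1.01 and -0.31, B2M, the light chain of MHC class I, -0.53 and -0.49, and MX1, an antiviral GTPase gene, -0.62 and -0.33. A second B2M probe was well above background in 0 channels (-0.22 and 0.01) and was not tested. The guanylate-binding protein gene GBP (1.14 and 0.37) and the peptide transporter gene TAP2 (0.52 and 0.36) were higher. IRF7, a transcription factor of the interferon response, had ratios of 0.04 and 0.06 (limma adjusted p = 0.806).

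**Figure D5:**
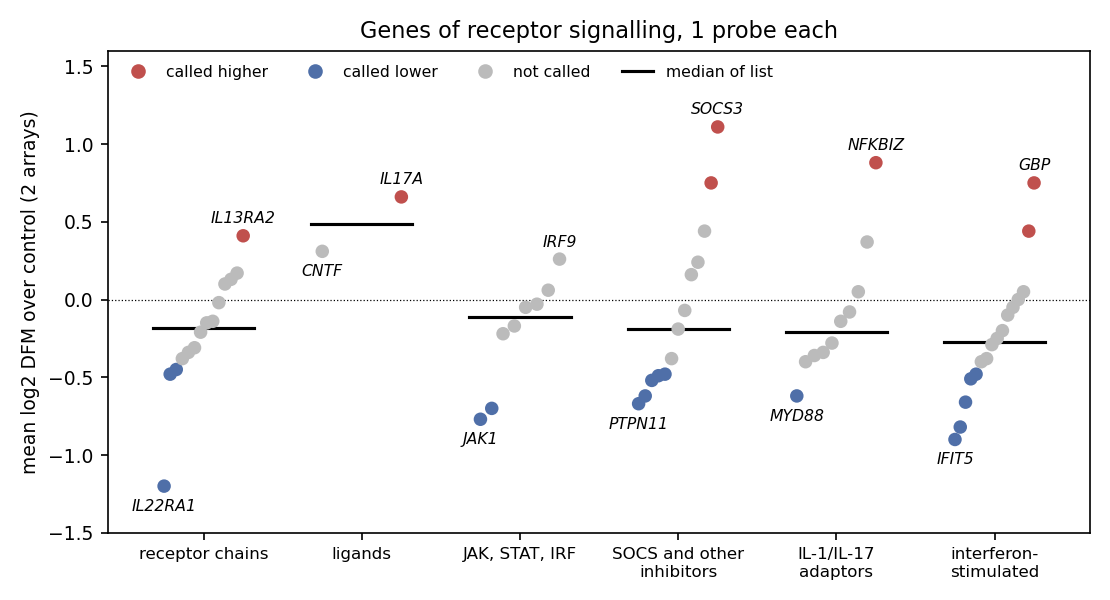
Mean log2 ratio of DFM over control (y axis) of each tested gene in 6 lists around the receptors, 1 probe per gene, red where called higher, blue where called lower and grey where not called, with the list median as a bar and the lowest and highest gene named. Together 7 genes were higher and 16 lower of 63 tested, relative to the average probe; set to the spike-in RNAs, all 63 were called higher.

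By their pair of array ratios, the named genes most like IFNAR1 were NOXO1 (-0.74 and -0.43), PIK3CB (-0.73 and -0.43) and OLFML3 (-0.74 and -0.44), at distances of 0.00643, 0.00738 and 0.00966 log2 units among 6088 genes compared over the 2 arrays. The likeness rests on 2 values a gene and is a description.

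The RNA came from a preparation of mixed cells, and fewer cells of a type and less RNA per cell cannot be told apart in it. T cell markers were present in the labelled lymphocytes: 7 of 10 probed markers, CD3D, CD3E and CD8A among them, were well above background in all 4 channels, while the leukocyte gene PTPRC was at 0 channels. CD8A was dim, at log2 signals of 6.30 and 6.35 in DFM and 6.46 and 6.44 in control. Summed T cell marker signal was 38100 and 31940 in DFM and 51020 and 48904 in control, and 1 marker was called higher and 1 lower. Beside the marker calls given here, limma called 14.5% of 6089 tested named genes lower and 8.46% higher. Most of that signal was CD3D, and without it the sums were 3747 and 3492 in DFM and 4387 and 3951 in control. Summed signal of the 4 probed cytotoxic cell markers was 28407 and 25216 in DFM and 88442 and 76070 in control, with 3 of 4 lower, led by GZMA at -1.68 and -1.62. Nearly all of that signal was GZMA, and without it the sums were 1569 and 1011 in DFM and 2246 and 1552 in control. Epithelial signal was strong: 9 of 10 enterocyte markers were well above background in all 4 channels, FABP2 in 0, the sum was 552258 and 452384 in DFM and 515861 and 548278 in control, and 4 markers were lower and 1 higher. Among the 9 tested enterocyte markers, EPCAM (-0.88 and -0.49), CALB1 (-1.39 and -1.40), HNF4A (-1.10 and -1.15) and APOB (-0.98 and -0.97) were lower, as was IL22RA1, a chain carried by epithelial cells in mammals. FABP6 was higher (0.61 and 0.59), and VIL1 (-0.34 and -0.15), CDH1 (0.11 and -0.31), FABP1 (0.91 and 0.16) and ANPEP (0.96 and -0.22) were not called. All 9 probed exocrine pancreas markers were higher with DFM, at sums of 21574 and 21115 against 1182 and 1206. Of these, 4 were well above background in all 4 channels, and the other 5 entered the test only through the DFM group. B cell marker sums were 2330 and 2088 in DFM and 1760 and 1869 in control. Without BCL11A, the brightest marker, they were 1109 and 1090 against 1368 and 1248, the other way. Macrophage or granulocyte sums were 18787 and 18783 against 21774 and 21254, with CSF1R in 0 channels. Without CTSS these were 1012 and 874 against 589 and 628, also the other way. Erythrocyte sums were 48406 and 41617 against 70026 and 74062. Without HBBA they were 8461 and 7260 against 6188 and 11212, of mixed direction. Stroma sums were 478 and 548 against 818 and 789, and 256 and 296 against 493 and 494 without COL1A2. The part of these cell types in the receptor values was not tested.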

How the data were processed

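RNA of DFM-fed and control chickens was measured on 2 dye-swapped Agilent arrays of 1 slide. Per the file headers, the deposited intensity columns used here give each spot's mean brightness and its median local background, uncorrected, for Cy5 and Cy3. The scanner software's log10 ratio of Cy5 over Cy3, which it had background- and dye-corrected, and its p-value within 1 array are also deposited. The authors' deposited series table holds log2 values. Both its columns equalled the log2 ratio of the processed signals turned to DFM over control (r = 1, largest gap 1.41e-05, medians of -0.274 and 0.204), so its scale, centring and direction are settled. Agilent Feature Extraction is given as version 10.7.3.1 per the submitters' processing notes and as 9.5.3.1 per the file headers, which name the build galGal2.

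Each array held 43451 spots, 1417 of them controls; 5 probes were left out for an outlier flag and 0 were saturated. On array 1, 21122 probes were well above background in DFM and 16889 in control, against 17331 and 20465 on array 2. Cy5 over Cy3 ratios of the arrays correlated at r = -0.794 over the tested probes, the sign of the labelled dye exchange. Precision is limited by the number of arrays.

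Intensities were corrected by normexp (offset 50) and loess within arrays, fitted without control spots, in limma 3.58.1 under R 4.3.3 (data.table version 1.17.8, Python 3.11.15, pandas 2.3.3, numpy 2.4.6), and channel signals were scaled by Aquantile. A probe was tested if either group had it well above background on both arrays. The mean of its 2 ratios was tested against 0 with lmFit and eBayes (two-sided, 1 residual and 7.52 prior degrees of freedom, prior variance 0.0349), Benjamini-Hochberg adjusted over 18242 probes at a threshold of 0.05. No dye term was fitted, since it would take the last residual degree of freedom. The fit was also run on simulated data, with equal noise for bright and dim probes and no dye effect built in. That run cannot show how the fit handles the noise of dim spots or a dye effect.

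The RefSeq table of GRCg7b served for names and gene order: 10278 of 42034 probes were named, through accessions (5309), gene identifiers (3774), symbols (888) or synonyms (307). The 9 genes, 6 lists and 8 marker lists were chosen with earlier results of these data known. The text names all 9 genes, up to 6 called genes per list and direction, direct partners and ligands, and the 3 genes nearest to the called receptor gene with the largest ratio; some uncalled list genes and markers were named after their values were seen. In all, 9 alternative settings were run, and each array was left out in turn.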

Additional observations from a re-analysis of the deposited data

How the results depend on the processing

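IFNAR1, IFNAR2 and IL10RB stayed below 0 and IL1R1 above 0 on each single array and in each setting run except with the spike-in RNAs at 0, relative to the average probe. The number of the 4 receptor genes called lower was 3 as reported and 0 with median centring and with the spike-in RNAs at 0. The number called higher was 0 as reported and 1 (IL1R1) with normexp at offset 0, plain background subtraction, the scanner software's ratio, the authors' series table and limma with a trend, and 4 with the spike-in RNAs at 0. Over all tested probes, 2202 were called higher as reported, 2292 with offset 0, 2654 with plain background subtraction and 2561 with a trend. With the scanner software's ratio and the series table, which gave the same values, 1179 probes were higher and 951 lower, and 2 genes of the 6 lists were higher and 5 lower. With median centring, 109 probes were higher and 8 lower and 0 list genes were called either way by limma, with median ratios of 0.44 and -0.474 over the tested probes of the 2 arrays. With the spike-in RNAs at 0, 18202 probes were higher and 2 lower, and 63 list genes were higher and 0 lower.

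At the spike-in scale the sign turned for IL10RB (1.66), IFNAR1 (1.55), IFNAR2 (1.55), IL22RA1 (0.93), IL21R (1.65), LIFR (1.68), JAK1 (1.36), STAT3 (1.43), PTPN11 (1.46), SOCS2 (1.51), PIAS2 (1.61), TOLLIP (1.64), SOCS6 (1.65), MYD88 (1.51), IFIT5 (1.23), ZNFX1 (1.31), OASL (1.47), B2M (1.62), MX1 (1.65), IL4R (1.82) and IFNGR2 (2.11), because one value per array is taken from every ratio. For the other changes the cause was not tested. Leaving out 1 array leaves no test, so counts of calls could not be recomputed; the single-array ratios are those in the text. No paired analysis was possible because each ratio already pairs DFM with control on 1 array and the labels form 1 group of 2 ratios. Signal near background limits IL17RA, IL6ST and IL13RA1.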
